A study of Arabidopsis thaliana with 6 samples.

Results

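The genes of the plastid genome were taken as every row of the count table whose identifier begins with ATCG, which gave 133 of the 32833 genes. All 133 had at least 1 count in each of the 6 libraries, and all 133 passed the filter on low counts that left 25364 genes in the test. The libraries came from protoplasts (cells without walls) of root tips of 7 day old Arabidopsis thaliana seedlings. All plants were Col0 carrying the reporters H2B-RFP, which marks chromatin, and CDT1a-GFP, a fusion to a replication licensing factor. Cells were sorted by ploidy into a 2n gate labelled G1, a gate between 2n and 4n labelled S and a 4n gate labelled G2M, with 2 libraries in each. Such gates hold cycling cells together with cells that stopped cycling at that ploidy. The labels do not say whether the 2 libraries of a gate came from separate sorts, so the p-values measure only the spread between these libraries, which may be technical.

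The plastid genome is the small genome kept by the plastid after its origin from a cyanobacterium. It encodes parts of the photosystems, of the ATP synthase, of the NAD(P)H dehydrogenase-like complex, of the plastid ribosome and of a bacterial-type RNA polymerase, beside ribosomal and transfer RNAs, while most plastid proteins are made in the cytosol from nuclear genes and imported. In root tips the plastids are mostly colourless proplastids, and in the columella of the root cap they are starch-filled amyloplasts, so the same genome is used there without photosynthesis.

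Of the 133 identifiers, 5 are described here by a product, through the matches that RefSeq records for nuclear copies of plastid genes. ATCG00670 is clpP, the proteolytic subunit of the Clp protease of the plastid stroma. ATCG01310 and ATCG00660 are rpl2 and rpl20, the ribosomal proteins L2 and L20. ATCG00530 is described as CemA-like and was matched to cemA, a protein of the inner envelope membrane. ATCG00430 is described as photosystem II reaction center protein G, an older name for a subunit of the NAD(P)H dehydrogenase-like complex, and no RefSeq plastid gene carries that name. The other identifiers are given with no name or role.

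The 4 matched genes are shown by the first 60 coding bases, 5′ to 3′ on the coding strand with the start codon in capitals, because clpP carries the most stable difference between gates and the other 3 are the members set beside it. The sequences are those of the RefSeq plastid genome of TAIR10.1, and rpl2 is given at both of its copies, which lie on opposite strands.
clpP: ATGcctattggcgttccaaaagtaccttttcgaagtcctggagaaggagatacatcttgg
rpl20: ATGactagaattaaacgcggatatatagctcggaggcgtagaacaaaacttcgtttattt
cemA: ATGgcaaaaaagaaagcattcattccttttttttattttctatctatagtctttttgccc
rpl2, copy 1: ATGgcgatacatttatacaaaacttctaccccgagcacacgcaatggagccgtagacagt
rpl2, copy 2: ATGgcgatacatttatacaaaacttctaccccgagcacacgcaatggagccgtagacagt

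On that build the clpP stretch lies at Pltd:71823-71882 on the minus strand, rpl20 at Pltd:68806-68865 on the minus strand and cemA at Pltd:60741-60800 on the plus strand. The stretch of rpl2 lies at Pltd:85784-85843 on the minus strand and at Pltd:152806-152865 on the plus strand. All these stretches begin the coding sequence of a protein-coding gene. The gene clpP spans Pltd:69910-71882 and, with introns, has a coding length of 591 bases. The rpl2 copies are identical at 1507 of 1507 bases and lie inside an inverted stretch of 26264 bases that is present exactly on both sides of a genome of 154478 bases. RefSeq lists 131 genes on it, of which 87 are protein-coding, 37 are tRNA genes and 7 are rRNA genes.

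That inverted repeat was visible in the counts. Each of the 8778 pairs of plastid identifiers was compared by the chi-square of its counts, taken per library, and 38 pairs lay under 2. Of these, 17 formed a mirrored series in which identifiers rising from ATCG00840 to ATCG00990 were matched by identifiers falling from ATCG01300 to ATCG01140. Their chi-square per library ran from 0.211 to 1.56, with a median of 0.895. The largest counts were those of ATCG00950 and ATCG01180, which had 50088 and 49516 counts in G1 replicate 1 and a chi-square of 0.897 per library over the 6 libraries. RefSeq holds 15 pairs of genes that are identical on opposite strands. The members of the series held 26.7% to 32.9% of the plastid counts of a library. The outer neighbours of the series, ATCG00830 and ATCG01310 (L2), did not match in this way: the count of ATCG01310 was 1.07 to 1.18 times that of ATCG00830, with a chi-square of 184 per library. How reads that fit several places were counted is not given in the sources used here. If a mirrored pair is 2 identical copies, its reads cannot be assigned to either copy. The 2 identifiers of a pair are therefore not treated as separate measurements. Counted once per pair, the members number 116. RefSeq holds rpl2, the gene of ATCG01310, in 2 identical copies, and ATCG00830 lies at the mirrored place of ATCG01310. ATCG00830 may thus be the other rpl2 copy, although their counts differ. Both were kept, so the 116 may still hold rpl2 at 2 identifiers.

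**Figure D1:**
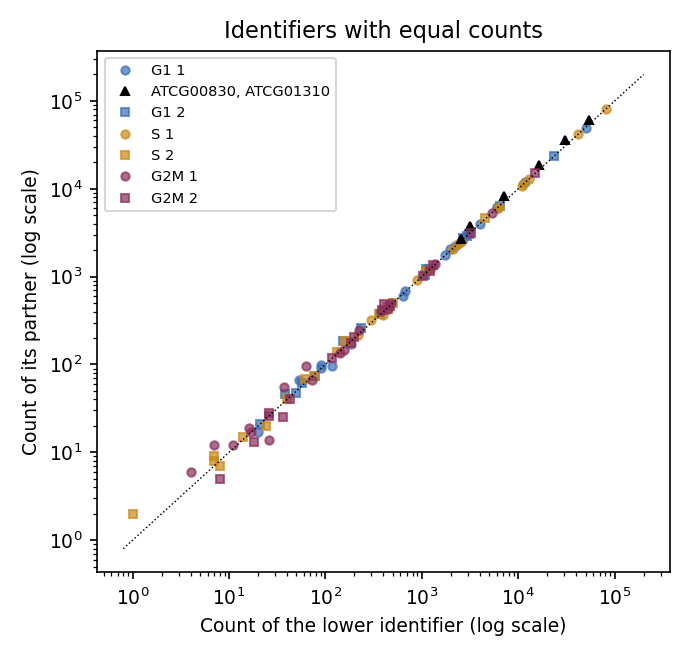
Count of each lower identifier of the 17 mirrored pairs (x axis, log scale) against the count of its partner (y axis, log scale) in each of the 6 libraries, with the outer neighbours ATCG00830 and ATCG01310 as triangles and the dotted line marking equal counts. The pairs lie on the line, with scatter below about 100 counts, and the triangles lie above it at 1.07 to 1.18 times.

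Library totals ran from 13114711 counts in S replicate 2 to 208406910 in S replicate 1, so the pair of libraries with the largest gap in depth is that of the S gate. In CPM (counts scaled to the library total, which was adjusted by TMM factors), 3 counts corresponded to between 0.0144 and 0.229 CPM, depending on the library. Root tip identity was checked with 6 markers. PLT1 lay between 43.2 and 70.6 CPM and PLT2 between 24.1 and 47.1 CPM. SHR lay between 22.5 and 72.5 CPM, MYB66 between 50.2 and 96.0 CPM and SCR between 4.33 and 22.1 CPM. WOX5, which marks the few cells of the quiescent centre, reached at most 0.542 CPM. Markers of the stomatal lineage of shoots (SPCH, MUTE and FMA) summed to 3.0 to 11.1 CPM. Of these FMA, at 2.67 to 7.98 CPM, overlapped the range of SCR. Markers of the root cap (SMB, FEZ, NAC015 and NAC070) summed to 539 and 461 CPM in G1, 359 and 368 CPM in S and 109 and 100 CPM in G2M, and all 4 were lower in G2M than in G1.

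Plastid genes took 0.502% and 0.524% of all counts in the 2 G1 libraries, 0.598% and 0.381% in S, and then 0.388% and 0.455% in G2M, in the order of the replicate numbers. The highest and the lowest share of the series both belonged to the S gate, whose range covered those of G1 and G2M, while both G2M libraries lay below both G1 libraries. The 95% Wilson intervals were narrow, from 0.378% to 0.385% in the shallowest library, and cover counting error only, since the reads carry no molecular identifiers and can be copies of 1 molecule. Gate means were 0.513% ± 0.0153 in G1, 0.489% ± 0.153 in S and 0.421% ± 0.0473 in G2M (SD, n = 2 each). No difference between gates could pass the 2-sided exact permutation test over libraries: p was 1.0 for S against G1 and for G2M against S, and 0.33 for G2M against G1 (n = 2), the smallest that 2 libraries against 2 allow. In such bulk libraries fewer plastid-rich cells and less plastid RNA per cell cannot be told apart. Mitochondrial genes, beside these, took 8.23% and 6.53% of the G1 libraries, 3.67% and 3.10% of the S libraries and 2.94% and 3.13% of the G2M libraries. Plastid genes therefore held a small part of the organelle reads in every library.

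**Figure D2:**
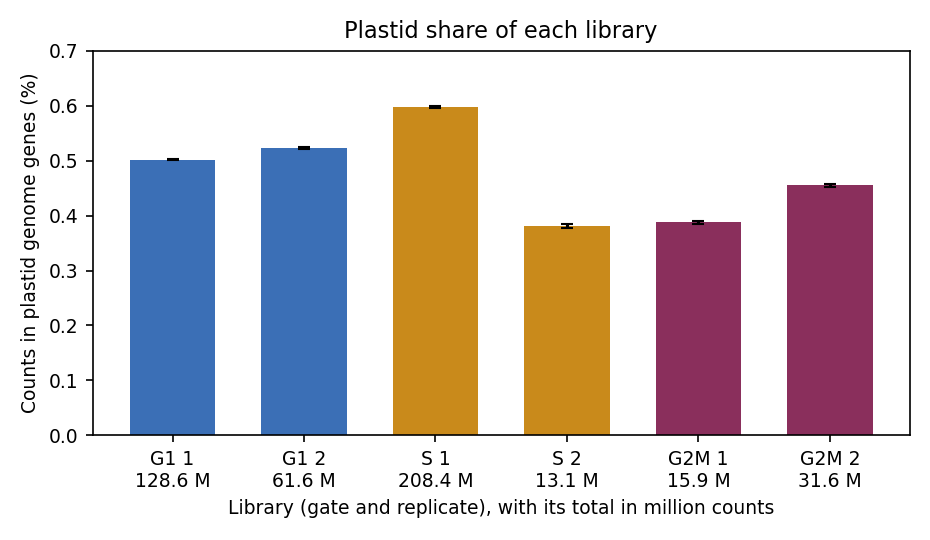
Percent of all counts that fell in the 133 plastid genes (y axis, from 0) in each library (x axis, with its total count); error bars are 95% Wilson intervals and colours mark the gates. The S libraries hold both the highest share (0.598%) and the lowest (0.381%).

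The plastid counts were concentrated in few members. The 10 members with the highest mean share over the 6 libraries held 42.7% to 55.2% of the plastid counts of a library, and the 20 highest by that mean held 62.0% to 70.0%. By mean CPM over the 6 libraries the leading members were ATCG00950 and its mirrored partner ATCG01180 at 388 CPM each. ATCG01130 at 357 CPM, ATCG01310 (L2) at 262 CPM, ATCG00740 at 243 CPM and ATCG00830, possibly the other rpl2 copy, at 229 CPM came next. ATCG01130 took 6.90% and 7.61% of plastid counts in the G1 libraries, 6.18% and 8.10% in S and 8.98% and 8.12% in G2M. The 8.12% of G2M replicate 2 was close to the 8.10% of S replicate 2, so the gates were not clearly apart. At the other end ATCG00980 had a mean of 0.346 CPM and as few as 1 count in a library. These CPM values are not divided by gene length, so they do not rank the genes by transcript level. Total RNA was amplified as cDNA with SMART-Seq v4, and how evenly this captured plastid transcripts was not tested. The shares and CPM values therefore describe reads and may not follow plastid RNA levels.

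The 4 matched members could be compared per length, as CPM per kilobase of coding sequence. L2 stood at 338 ± 10.2 CPM per kilobase in G1, 295 ± 54.4 in S and 318 ± 22.0 in G2M. In the same order of gates clpP stood at 74.4 ± 8.98, 51.3 ± 11.3 and 41.8 ± 4.73, L20 at 48.1 ± 2.82, 50.4 ± 15.1 and 33.0 ± 5.14, and cemA at 40.3 ± 3.99, 32.3 ± 12.9 and 31.4 ± 2.00 (SD, n = 2 each). The ribosomal protein L2 was above the other 3 in every library. clpP and L20 overlapped in S, and L20 and cemA overlapped in S and in G2M. Since reads of rpl2 may be divided between its copies, the level of L2 is uncertain. The order of the 4 members also depends on how evenly the cDNA amplification captured them, which was not tested.

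Nearly all members differed in the same direction between the libraries of the S gate. ATCG00190, one of the better counted members, made up 3.18% of plastid counts in S replicate 1 and 1.55% to 1.76% in the other libraries. On the log2 CPM scale, 131 of 133 members were higher in S replicate 1 than in S replicate 2, with a median log2 difference of 0.854, whereas over all genes tested the median was -0.00274 and 49.6% were higher in replicate 1. In G1 the same median of the members was 0.00205, and in G2M it was -0.187. S replicate 1 was the highest of the 6 libraries for 104 members, or 78.2%, against 21.3% of all genes. The lowest library was S replicate 2 for 57 members and G2M replicate 1 for 52. Mitochondrial genes had a median difference of 0.906 between the S libraries, close to that of the plastid genes.

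The gap between the S libraries was largest in low members. Its median was 1.33 for the 38 members with a mean under 5 CPM, 0.948 for the 33 from 5 to 15 CPM, 0.698 for the 40 from 15 to 50 CPM and 0.477 for the 22 at or above 50 CPM. Over all genes the same classes had medians of 0.618, -0.0251, -0.13 and -0.173. Across members the gap and the log2 of the mean CPM had a Pearson r of -0.648 (n = 133 members, which share libraries and include mirrored pairs), given as a description. The gap of a member and that of the next identifier had an r of 0.335, and for the change from G1 to G2M this r was 0.468 (n = 132 neighbouring pairs). Depth also differed between the S libraries, and its part in the gap was not tested.

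**Figure D3:**
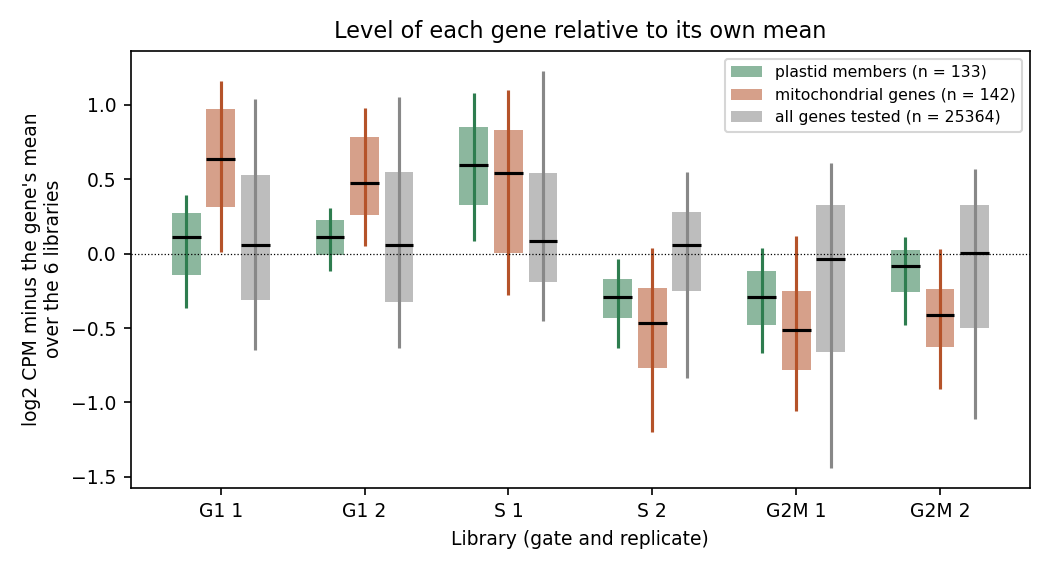
log2 CPM of each gene minus its own mean over the 6 libraries (y axis) for the plastid members, the mitochondrial genes and all genes tested in each library (x axis); black lines are medians, boxes run from the first to the third quartile and thin lines from the 10th to the 90th percentile. The plastid median is 0.593 in S replicate 1 and -0.288 in S replicate 2, while over all genes it is 0.0832 and 0.0588.

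From the 2n to the intermediate gate, 3 members fell and none rose at an adjusted p under 0.05 (edgeR quasi-likelihood test, Benjamini-Hochberg over all genes tested). The 3 are 2.26% of the members, where 21.2% of all genes were called, 13.9% as higher and 7.28% as lower. At an unadjusted p under 0.05, 4 members were higher and 10 lower, and with DESeq2 1 was called higher and 10 lower. For counts of members at an unadjusted p, here and below, no share over all genes is given. The same holds for their counts under other methods or with a library left out. Such counts cannot be read as particular to plastid genes. The median log2 change of the members was 0.106, beside 0.0767 over all genes. It took the sign of whichever S library was kept: -0.40 with 26 members lower and 0 higher without S replicate 1, and 0.44 with 22 higher and 3 lower without S replicate 2. Without G1 replicate 1 the calls were 0 higher and 1 lower, and without G1 replicate 2 they were 1 higher and 0 lower. With upper-quartile factors, which shifted the median of all genes from 0.08 to -0.10, the median of the members was -0.06. In limma-voom 43 members were called higher and 5 lower.

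The member with the lowest adjusted p in that comparison was ATCG00800, at 128 and 142 CPM in G1, 95.6 and 93.6 CPM in S and 107 and 112 CPM in G2M. Its S libraries lay below all the others, and the 3 gates did not overlap. The log2 change from G1 to S was -0.51 ± 0.12 (SE), with an adjusted p of 0.00845 in edgeR. Without G1 replicate 2 its adjusted p was 0.11, and it held under the other alternatives. The other called members were the mirrored pair ATCG00960 and ATCG01170, which count as 1 measurement. ATCG00960 lay at 16.9 CPM in both G1 libraries, 10.8 and 10.4 CPM in S and 10.4 and 12.9 CPM in G2M. ATCG01170 lay at 17.2 and 18.5 CPM in G1, 10.7 and 10.8 CPM in S and 9.86 and 14.0 CPM in G2M. Both identifiers were higher in the G1 libraries than in any other. Their log2 changes from G1 to S were -0.67 ± 0.19 (adjusted p = 0.0227, edgeR) and -0.73 ± 0.20 (adjusted p = 0.0216, edgeR). Both calls were lost without G1 replicate 1, without G1 replicate 2 and when all libraries were thinned to the smallest total, up to an adjusted p of 0.131 and 0.954.

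From G1 to S, both S libraries lay below both G1 libraries in 13 members, or 9.77%, against 25.0% of all genes. They lay above in 8 members, or 6.02%, against 30.2%. Between the S libraries the median log2 difference was 0.854 for the members, beside -0.00274 over all genes. These shares may depend on that gap and do not show that members changed less than other genes. The same limit holds for such shares from S to G2M below.

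Between the intermediate gate and the 4n gate, 4 members fell and none rose, 3.01% of the members beside 19.6% of all genes (9.46% higher and 10.1% lower). At an unadjusted p under 0.05, 24 members were lower and 0 higher, and DESeq2 called 7 lower, with no share of all genes given for either. The median log2 change was -0.455, beside -0.10 over all genes, and 117 of 133 members had a negative value. These counts rested on S replicate 1. Without it 3 members were called higher and 0 lower, with a median of 0.14, none of them among the 4, and without S replicate 2 there were 67 lower, with a median of -0.76. Without G2M replicate 1 no member was called, without G2M replicate 2 there were 2, and with the libraries thinned to equal totals there were 0. Both G2M libraries lay below both S libraries in 22 members, or 16.5%, against 31.4% of all genes, and above them in 6, or 4.51%, against 28.6%.

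The 4 members called between S and G2M were all higher in S replicate 1 than in any other library. ATCG00270 lay at 15.5 and 7.84 CPM in S and 5.53 and 5.83 CPM in G2M, beside 4.84 and 7.76 CPM in G1. ATCG00890 lay at 28.5 and 14.4 CPM in S and 9.53 and 13.5 CPM in G2M, beside 13.4 and 16.4 CPM in G1. ATCG01040 lay at 20.0 and 9.88 CPM in S and 7.80 and 7.97 CPM in G2M, beside 13.3 and 11.6 CPM in G1. In each of these 3 the S libraries differed by close to the size of the change itself. ATCG01070 had the closer S libraries, at 14.1 and 11.7 CPM, against 5.53 and 8.88 CPM in G2M and 10.9 and 8.94 CPM in G1. The log2 changes of the 4 ran from -0.83 to -1.07, with adjusted p from 0.0326 to 0.0422 in edgeR. None of the 4 held without S replicate 1 or without G2M replicate 1.

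Across the whole step from the 2n to the 4n gate, 9 members fell and none rose, 6.77% of the members beside 40.3% of all genes (23.2% higher and 17.1% lower). At an unadjusted p under 0.05, 23 members were lower and 0 higher, with no share of all genes given for that threshold. The median log2 change was -0.347, beside -0.143 over all genes, and 111 of 133 members had a negative value. Both G2M libraries lay below both G1 libraries in 72 members, or 54.1%, against 42.0% of all genes, and above them in 5, or 3.76%, against 36.4%. The median stayed negative with each library left out, from -0.45 to -0.17, but without G2M replicate 1 the value of -0.17 stood beside -0.18 over all genes, so the members no longer lay below them. The number of calls also moved: 0 higher and 1 lower without G1 replicate 1 or without G2M replicate 1, 1 higher and 33 lower without S replicate 1, and 1 higher and 31 lower without S replicate 2. The S libraries are not compared in this step, but 1 fit held all gates, so their spread enters its p-values. Between them the median log2 difference was 0.854 for the members, beside -0.00274 over all genes. The 6.77% may thus depend on that spread and does not show that members changed less than other genes. The share of all genes called without an S library is not given. The shares called in the other steps carry the same limit. With upper-quartile factors, which shifted the median of all genes from -0.14 to -0.36, 28 members were lower. With no filter on low counts the median of the members was -0.36, beside -0.32 over all genes of that fit, so the 2 were close. With the libraries thinned to equal totals the median was -0.42 over 131 members, beside -0.02 over all genes.

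**Figure D4:**
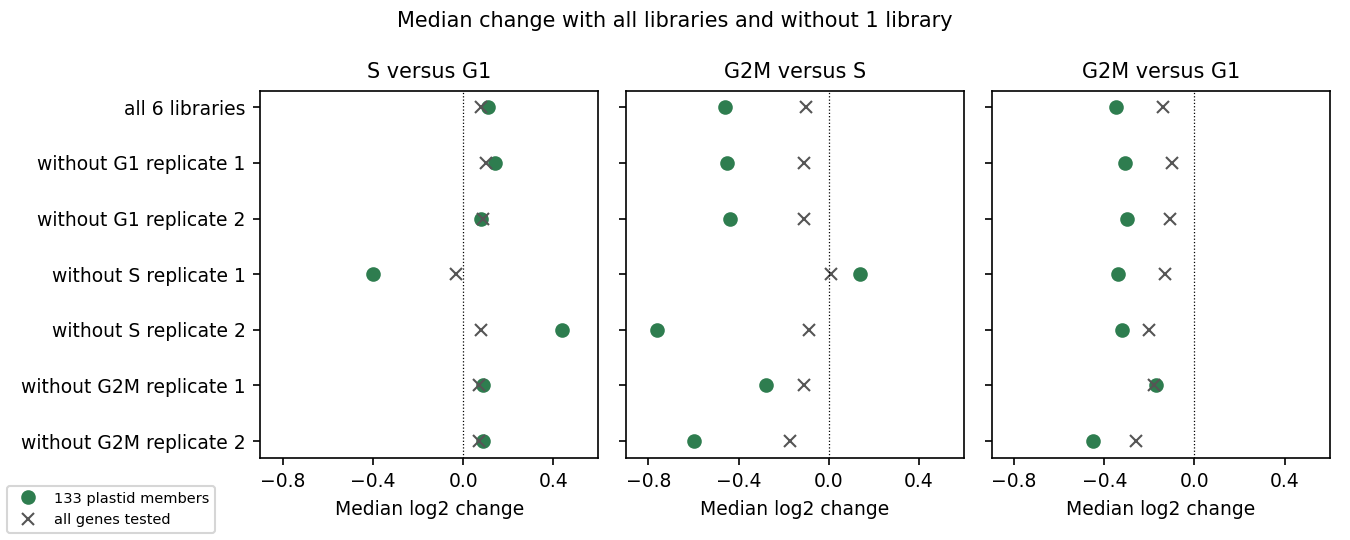
Median log2 change (x axis) of the 133 plastid members (circles) and of all genes tested (crosses) in the 3 comparisons, with all 6 libraries and with each library left out (y axis). For S versus G1 and for G2M versus S the sign for the members turns when S replicate 1 is left out, while for G2M versus G1 it is negative in every row.

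The member with the lowest adjusted p was clpP (ATCG00670), which encodes the proteolytic subunit of the stromal Clp protease, the housekeeping protease of the plastid. It lay at 47.7 and 40.2 CPM in the G1 libraries, 35.0 and 25.6 CPM in S and 22.7 and 26.7 CPM in G2M. The G1 libraries were the highest, G2M replicate 1 was the lowest, and S overlapped with G2M but not with G1. From G1 to G2M its mean went from 44.0 ± 5.31 to 24.7 ± 2.79 CPM (SD, n = 2 each), a log2 change of -0.83 ± 0.18 (SE; adjusted p = 0.00243, edgeR). This call held in all 13 alternatives, each library left out included, with log2 changes from -1.04 to -0.70 and adjusted p from 8.41e-05 to 0.0471. From G1 to S the log2 change was -0.52 ± 0.18, just outside the threshold at an adjusted p of 0.0525, and it passed in 6 of the 13 alternatives. From S to G2M it was -0.31 ± 0.18 (adjusted p = 0.24, edgeR).

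The other members that fell from G1 to G2M have no product assigned here. ATCG00090 lay at 8.49 and 5.42 CPM in G1, 5.96 and 4.39 CPM in S and 3.33 and 3.65 CPM in G2M, the largest fall of the 9 at -0.99 ± 0.33 on the log2 scale (adjusted p = 0.0279, edgeR). ATCG00160 lay at 30.6 and 21.7 CPM in G1, 23.9 and 12.1 CPM in S and 13.3 and 15.6 CPM in G2M. ATCG00340 lay at 96.3 and 65.8 CPM in G1, 77.8 and 49.0 CPM in S and 57.4 and 49.6 CPM in G2M. In each of these 3 members G1 replicate 1 was the highest library and S replicate 2 lay well below S replicate 1. ATCG00540 lay at 24.4 and 22.9 CPM in G1, 19.3 and 14.7 CPM in S and 16.9 and 16.4 CPM in G2M. ATCG00720 lay at 61.1 and 63.7 CPM in G1, 57.9 and 35.1 CPM in S and 41.5 and 43.6 CPM in G2M. In both members the replicates of G1 and of G2M were close, and the S libraries spanned the G2M values. ATCG01050, at 67.8 and 49.8 CPM in G1, 55.3 and 40.7 CPM in S and 36.1 and 46.0 CPM in G2M, was the call nearest to the threshold, with an adjusted p of 0.0478 in edgeR. The mirrored pair ATCG00960 and ATCG01170 fell here as well, by 0.53 and 0.57 on the log2 scale. The 8 calls other than clpP were each lost in 3 to 7 of the 13 alternatives, and all 8 were lost without G2M replicate 1.

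The nearest miss in that comparison and in the one before it was ATCG00380, at 28.4 and 26.7 CPM in G1, 34.3 and 24.1 CPM in S and 16.2 and 22.3 CPM in G2M. Its adjusted p was 0.0513 for S to G2M and 0.059 for G1 to G2M in edgeR. Over the 3 comparisons 14 distinct members were called, in 16 calls. The libraries of the gates compared did not overlap in any of the 16. This adds no support to the calls, since with 2 libraries per gate a low p favours values that separate. Counting each mirrored pair once, the calls were 2 lower from G1 to S, 4 from S to G2M and 8 from G1 to G2M, of 116.

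**Figure D5:**
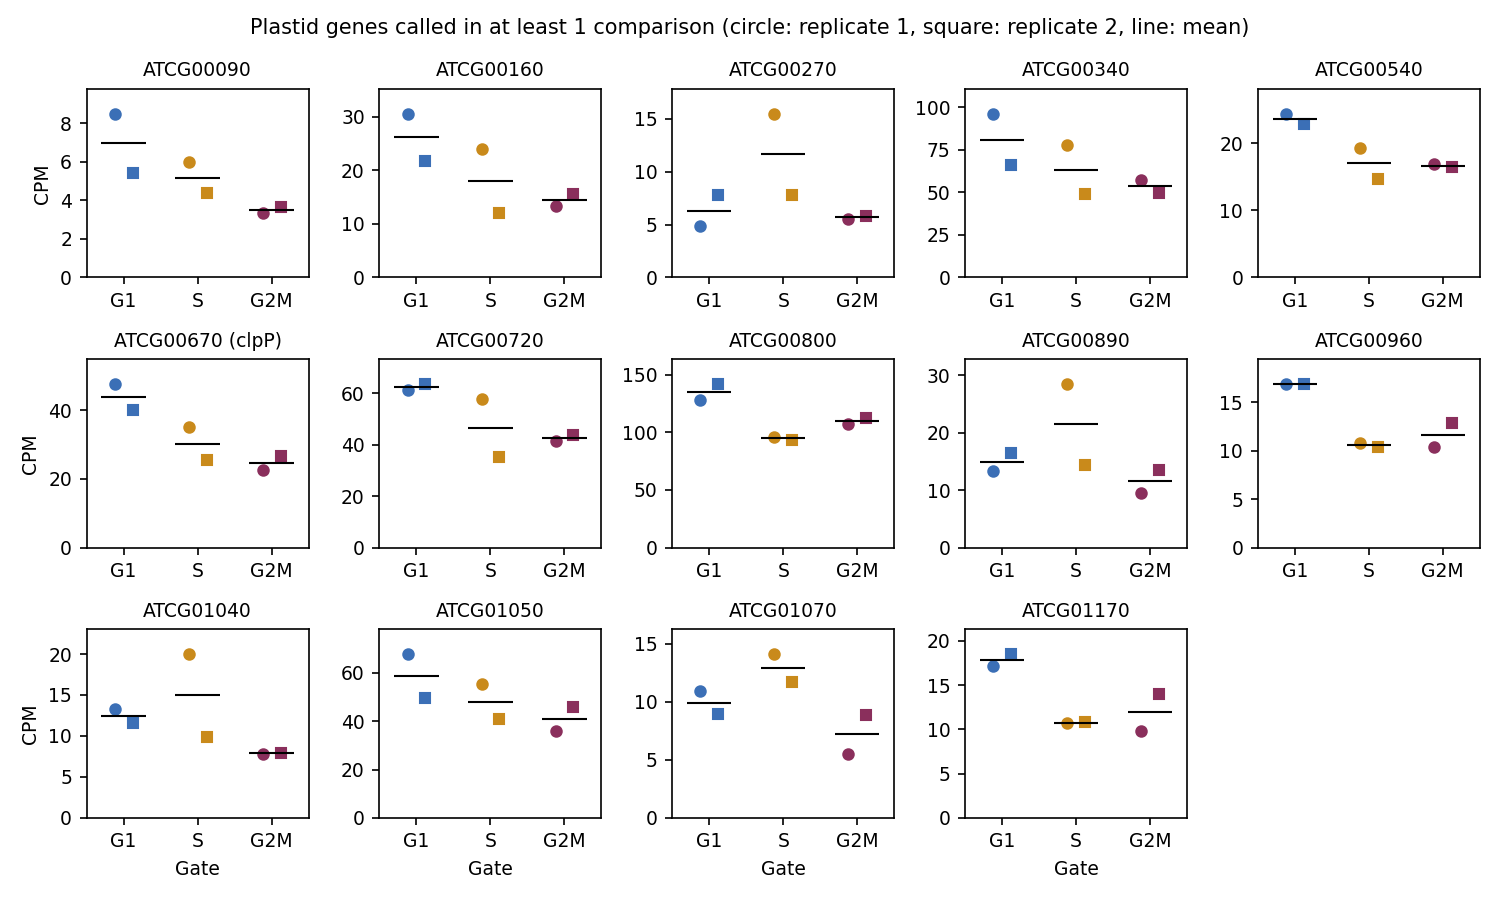
CPM (y axis, from 0, scaled by TMM factors) of the 14 plastid members called in at least 1 comparison, by gate (x axis), with circles for replicate 1, squares for replicate 2 and a line at the mean. In clpP the G1 libraries (47.7 and 40.2 CPM) lie above the S and the G2M libraries, and in ATCG00270, ATCG00890 and ATCG01040 S replicate 1 stands above all others.

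The plastid-encoded ribosomal proteins L2 and L20 did not pass in any comparison. L2 (ATCG01310), of the large subunit, lay at 273 and 285 CPM in G1, 275 and 211 CPM in S and 250 and 276 CPM in G2M, with a log2 change from G1 to G2M of -0.09 ± 0.14. Its G1 and G2M libraries overlapped. L20 (ATCG00660), also of the large subunit, lay at 17.7 and 16.3 CPM in G1, 21.6 and 14.0 CPM in S and 10.4 and 13.0 CPM in G2M. Its G2M libraries were the lowest of all, and the log2 change from G1 to G2M was -0.54 ± 0.22 (adjusted p = 0.0677, edgeR). L20 passed in 4 of the 13 alternatives of that comparison.

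The envelope protein cemA (ATCG00530) lay at 29.7 and 25.8 CPM in G1, 28.5 and 16.0 CPM in S and 22.7 and 20.7 CPM in G2M, with a log2 change from G1 to G2M of -0.36 ± 0.22 (adjusted p = 0.217, edgeR). ATCG00430, the member described as photosystem II reaction center protein G, lay at 6.14 and 4.56 CPM in G1, 10.7 and 3.69 CPM in S and 3.66 and 3.59 CPM in G2M, with a log2 change of -0.57 ± 0.42 (adjusted p = 0.299, edgeR). In both genes the G2M libraries lay below the G1 libraries without passing, and the S libraries were the widest pair. A p that misses the threshold does not show that these levels were equal.

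Nuclear genes that serve the plastid genome and its products were set beside the members as lists. From G1 to G2M, 13 of the 21 tested genes of plastid transcription rose and 0 fell, with a median log2 change of 0.964 beside -0.143 over all genes, of which 23.2% rose and 17.1% fell. AT5G15700, the organelle RNA polymerase RPOTmp of phage type, lay at 16.0 and 15.9 CPM in G1, 43.4 and 33.2 CPM in S and 52.2 and 46.8 CPM in G2M. PTAC3, a part of the transcriptionally active chromosome of plastids, lay at 7.83 and 6.15 CPM in G1, 17.2 and 15.9 CPM in S and 23.2 and 21.5 CPM in G2M. Both were lowest in the G1 libraries and highest in the G2M libraries, with log2 changes from G1 to G2M of 1.63 ± 0.16 and 1.67 ± 0.19 (adjusted p = 5.89e-06 and 1.65e-05, edgeR).

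Of the nuclear genes for plastid ribosomal proteins, 24 of 36 tested rose from G1 to G2M and 0 fell, with a median of 0.589. The count was 15 with upper-quartile factors, 15 without G1 replicate 1 and 14 without G2M replicate 2. The gene of L13, emb1473, lay at 48.6 and 53.4 CPM in G1, 66.6 and 85.1 CPM in S and 98.6 and 105 CPM in G2M, a log2 change of 1.00 ± 0.14 (adjusted p = 0.00012, edgeR). The plastid-encoded L2 and L20 of the same ribosome had the values of -0.09 and -0.54 given above. The difference between nuclear and plastid genes was not tested.

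All 8 genes of plastid DNA copying and the nucleoid rose from G1 to G2M, with a median of 1.11. GYRB1, a subunit of organelle DNA gyrase, lay at 27.4 and 24.4 CPM in G1, 41.1 and 43.4 CPM in S and 73.3 and 59.6 CPM in G2M, and POLGAMMA1, an organelle DNA polymerase, lay at 23.0 and 26.4 CPM in G1, 51.8 and 53.3 CPM in S and 70.0 and 53.0 CPM in G2M. GYRB1 did not overlap between any gates, while S and G2M overlapped in POLGAMMA1. Of the 12 genes of plastid division 9 rose and 0 fell. ARC5, a dynamin-like protein that constricts the dividing plastid, rose by 1.62 ± 0.14 on the log2 scale (adjusted p = 1.71e-06, edgeR), from 28.0 and 27.8 CPM in G1 to 91.0 and 81.0 CPM in G2M.

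Of the 10 genes of plastid RNA binding and decay 7 rose, and of the 12 genes of plastid protein import 9 rose, with none lower in either. CP29, which binds plastid transcripts, lay at 80.7 and 83.3 CPM in G1, 113 and 151 CPM in S and 224 and 220 CPM in G2M. RNEE/G, a plastid endoribonuclease, lay at 3.73 and 2.53 CPM in G1, 6.92 and 8.0 CPM in S and 7.86 and 7.24 CPM in G2M. TIC110 of the inner envelope lay at 52.9 and 54.2 CPM in G1, 105 and 119 CPM in S and 164 and 141 CPM in G2M. In all 3 genes the G1 libraries were the lowest pair, and the log2 changes from G1 to G2M were 1.44 ± 0.14, 1.26 ± 0.29 and 1.51 ± 0.13 (adjusted p = 5.79e-06, 0.0039 and 2.02e-06, edgeR).

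Nuclear photosynthesis genes were mostly low. Of the 42 in the list 19 had a mean under 1 CPM. From G1 to G2M, 2 of the 37 tested rose and 4 fell, with a median of -0.39. Over all genes tested 23.2% rose and 17.1% fell in that step, with a median of -0.143. Neither count therefore sets photosynthesis genes apart. The summed level of the list lay between 77.6 and 92.3 CPM in every library. FNR2, a ferredoxin-NADP reductase, rose from 4.70 and 5.18 CPM in G1 to 16.3 and 15.7 CPM in G2M, and PSAN, a subunit of photosystem I, fell from 7.52 and 8.67 CPM to 2.2 and 2.85 CPM. With 1 library left out the counts were as low as 1 higher (without either G1 library or G2M replicate 2) and 2 lower (without either G1 library or G2M replicate 1). Of the 10 genes of starch synthesis 4 rose and 1 fell, and the higher count was 1 with upper-quartile factors, without G1 replicate 1 and without G2M replicate 1, and 2 without G2M replicate 2.

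The root cap markers fell over the same step, for which the plastid share was 0.513% in G1 and 0.421% in G2M. SMB, a regulator of root cap maturation, lay at 111 and 78.5 CPM in G1, 44.6 and 47.7 CPM in S and 20.6 and 14.9 CPM in G2M. In S replicate 1, where 104 plastid members were highest, the summed root cap level was 359 CPM, close to the 368 CPM of S replicate 2. The part of cell type in the plastid values was not tested.

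From G1 to S, the lists had 7 of 21 genes higher for plastid transcription, 5 of 36 for ribosomal proteins, 6 of 12 for division, 6 of 8 for DNA copying, 6 of 10 for RNA binding and decay and 4 of 12 for import, with none lower in these lists, beside 13.9% of all genes higher. From S to G2M the same lists had 7, 15, 1, 1, 3 and 9 genes higher and 0 lower, beside 9.46% of all genes higher. Several of these counts moved when 1 library was left out. The share of all genes called in such fits, or with upper-quartile factors, is not given here or for the list counts above. Such shifts cannot be read as particular to these lists. Without S replicate 1 the ribosomal proteins had 9 higher from G1 to S and 3 from S to G2M, and import had 5 from S to G2M. Without S replicate 2 the ribosomal proteins had 3 and 23, and from S to G2M transcription had 11, division 4 and DNA copying 6. From G1 to S, transcription had 4 without G1 replicate 1 and 3 without G1 replicate 2, the ribosomal proteins had 1 without either, DNA copying had 3 and import 2 without G1 replicate 1, and RNA binding and decay had 3 without G1 replicate 2. From S to G2M, transcription had 4 and the ribosomal proteins 9 without either G1 library. Without G2M replicate 1 no gene of transcription, ribosomal proteins, division or DNA copying passed from S to G2M, RNA binding and decay had 1 and import 3, and without G2M replicate 2 the counts of transcription, ribosomal proteins, division, RNA binding and decay and import were 1, 0, 0, 1 and 4. The counts from G1 to G2M of transcription, division, DNA copying, RNA binding and decay and import stayed within 1.5 times the values above with each library left out.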

How the data were processed

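The deposited table used here holds raw read counts per gene, without normalization, made by the authors with Trimmomatic 0.39, HISAT2 2.2.1 and featureCounts on TAIR10, per the submitters' processing notes; the counting options, strandedness and handling of multi-mapping reads are not stated in those notes or in the labels, so genes that overlap or lie antisense to others are uncertain. Per the labels' protocols, total RNA was amplified as cDNA with SMART-Seq v4. A table named TPM was not used, because its column sums are far below those of that unit. Tests used edgeR 4.0.16 under R 4.3.3 on the counts of all genes (TMM, filterByExpr, quasi-likelihood F test, 1 fit of the 3 gates, Benjamini-Hochberg threshold 0.05), checked on simulated data. An SE is the log2 change divided by the square root of F. limma 3.58.1 and DESeq2 1.42.0 served as alternatives. The pairs of libraries were no duplicates (chi-square per degree of freedom 7.593 or more). The members and lists were chosen with earlier results of these data known. Named members are those called in a comparison, those with an assigned product and those with the highest means; in the lists, they are the calls with the largest changes among genes whose libraries did not overlap and whose higher gate had a mean of at least 5 CPM, not all of which are printed. The members named for mirrored counts, for the S gap and as nearest misses were chosen after their values were seen. Grouping by gene symbol and the share without rRNA and tRNA genes were planned but not run, since the reference used here does not pair most identifiers with symbols. The values of 1 member are not reported here. Product names and sequences are from RefSeq TAIR10.1.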

Additional observations from a re-analysis of the deposited data

How the results depend on the processing

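The share of the plastid genes was 0.554% in G1 without mitochondrial genes in the total. Separately, 1 identifier of each mirrored pair was left out of the plastid sum, with the library total unchanged. The share was then 0.444% in G1 and 0.356% in G2M. If each read was counted at only 1 copy, these values leave out plastid reads and are too low. The S share moved by less than its spread under both settings. From G1 to S, members called lower numbered 11 with upper-quartile factors, 10 with DESeq2, 5 with limma-voom and 6 with no filter, and members called higher numbered 1 with DESeq2, 43 with limma-voom and 3 with no filter. From S to G2M, members called lower numbered 7 with DESeq2, 22 with limma-voom, 14 with no filter and 0 with thinned libraries. From G1 to G2M they numbered 28 with upper-quartile factors (median -0.56), 23 with no filter and 3 with thinned libraries. With 1 library left out, the higher and lower counts ran from 0 to 22 and 0 to 26 from G1 to S, 0 to 3 and 0 to 67 from S to G2M, and 0 to 1 and 1 to 33 from G1 to G2M, and the medians from -0.40 to 0.44, -0.76 to 0.14 and -0.45 to -0.17. Differences between replicates had an r over all genes of -0.0462 (G1 and S), 0.0311 (G1 and G2M) and -0.0649 (S and G2M). Over the members r was -0.2669, -0.0686 and 0.3253 in the same order. These values cannot tell whether libraries of equal number shared a sort or preparation. With the replicate number as a block the lower calls were 4, 1 and 9, and the call of ATCG00670 from G1 to G2M held. Signs turned for L20 from G1 to S with upper-quartile factors (-0.08). With 1 library left out, log2 changes from G1 to S ran from -0.54 to 0.97 for ATCG00430, -0.80 to 0.01 for cemA and -0.28 to 0.31 for L20; from S to G2M from -0.35 to 0.44 for cemA and -0.02 to 0.32 for L2; and from G1 to G2M from -0.16 to 0.00 for L2. The cause of these shifts was not tested. The share without rRNA and tRNA genes was not run. With 2 libraries per gate, each call borrows its spread from other genes, and a gate left with 1 library is assumed to vary like the others.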
